A study of Mus musculus with 29 samples.

Results

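The 9 denervation and neuromuscular junction genes were followed in the gastrocnemius muscle of calorie-restricted and treadmill-trained mice. They are Chrna1, Chrnb1, Chrnd, Chrne and Chrng, which encode the subunits of the muscle acetylcholine receptor, the receptor tyrosine kinase gene Musk, the myogenic factor gene Myog, the adhesion molecule gene Ncam1 and the stress-response gene Gadd45a. The genes were chosen by symbol, and all 9 were found among the 24770 symbols of the table. All mice were male wild-type (WT) C57BL/6J, entered the study at 8 weeks of age and were treated for 8 weeks. The control group was sedentary and fed ad libitum, the CR group received food lowered stepwise to 70% of ad libitum intake, the EX group ran on a treadmill for 60 min in each of 5 sessions per week, and the CREX group received both. All groups were fasted for 6 h before the tissue was taken, 24 h after the last run. Gastrocnemius, a mixed muscle that is mostly fast, was profiled by RNA-seq in 4 control, 3 CR, 4 EX and 3 CREX libraries. Brown adipose tissue (BAT) of the same design (15 libraries) was read only for the level of the same genes.

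At the neuromuscular junction, acetylcholine released by the motor axon opens receptors packed under the nerve terminal. Adult receptors are built from alpha, beta, delta and epsilon subunits, and the gamma subunit, encoded by Chrng, takes the place of epsilon in fetal and denervated muscle. Agrin from the nerve acts through LRP4 and MuSK to cluster the receptors on the scaffold protein rapsyn. Away from the synapse, electrical activity keeps the receptor genes, Musk, Myog and Ncam1 low in innervated fibres. When the nerve is cut, myogenin, a basic helix-loop-helix factor that binds E boxes, rises and the receptor subunit genes are induced along the whole fibre. Gadd45a, a target of ATF4, is induced by denervation, fasting and immobilization as well.

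The E boxes near the start sites are shown because CANNTG is the element through which myogenic factors act on these genes. The RefSeq promoter table (GRCm38.p6, the build the deposited counts used as mm10) held an entry for 7 of the 9 genes, Chrna1, Chrnb1, Chrne, Chrng, Musk, Myog and Gadd45a. The 250 bases before the annotated start of 5 of them are printed 5′ to 3′ on the coding strand, with every CANNTG in capitals. Chrna1 lies at chr2:73580339-73580588 on the minus strand, Chrnb1 at chr11:69795938-69796187 (minus), Chrne at chr11:70619195-70619444 (minus), Musk at chr4:58285712-58285961 (plus) and Myog at chr1:134289754-134290003 (plus).
Chrna1: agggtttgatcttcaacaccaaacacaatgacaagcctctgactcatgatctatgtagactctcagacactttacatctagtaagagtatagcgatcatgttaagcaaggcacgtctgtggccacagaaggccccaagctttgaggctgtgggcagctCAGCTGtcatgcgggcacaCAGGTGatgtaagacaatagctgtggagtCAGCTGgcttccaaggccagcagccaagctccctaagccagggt
Chrnb1: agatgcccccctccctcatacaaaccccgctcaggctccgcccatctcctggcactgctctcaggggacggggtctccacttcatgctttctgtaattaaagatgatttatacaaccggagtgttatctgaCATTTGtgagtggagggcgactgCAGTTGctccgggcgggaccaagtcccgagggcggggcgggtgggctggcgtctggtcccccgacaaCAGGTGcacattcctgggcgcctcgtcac
Chrne: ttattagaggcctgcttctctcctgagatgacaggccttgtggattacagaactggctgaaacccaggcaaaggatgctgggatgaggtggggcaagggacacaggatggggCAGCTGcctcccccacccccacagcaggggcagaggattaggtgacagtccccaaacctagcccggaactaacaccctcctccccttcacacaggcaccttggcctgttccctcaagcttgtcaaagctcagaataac
Musk: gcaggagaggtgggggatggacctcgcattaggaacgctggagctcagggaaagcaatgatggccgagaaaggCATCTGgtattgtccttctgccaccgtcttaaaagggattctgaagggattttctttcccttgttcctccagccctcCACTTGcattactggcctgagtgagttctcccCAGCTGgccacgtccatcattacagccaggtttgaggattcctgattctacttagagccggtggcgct
Myog: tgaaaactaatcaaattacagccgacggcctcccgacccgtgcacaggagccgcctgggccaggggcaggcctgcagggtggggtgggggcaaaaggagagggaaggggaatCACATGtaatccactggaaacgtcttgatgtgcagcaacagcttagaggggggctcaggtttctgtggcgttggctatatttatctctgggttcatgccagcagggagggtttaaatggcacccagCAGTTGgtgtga
CANNTG, which is its own reverse complement and so was read on both strands at once, was found 3 times each for Chrna1, Chrnb1, Chrng and Musk, 2 times for Myog, and 1 time each for Chrne and Gadd45a. The RefSeq window of Chrng lies inside the GENCODE gene model described next, which starts further upstream, and is not printed. Of all 32851 promoters in the table, 66.2% held at least 1 match in the same window and 12.2% held 3 or more. The CAGCTG form, a subset of these matches, occurred in the windows of Chrna1, Chrne, Chrng and Musk, against 13% of all promoters. The sequence CCGGAA, searched on both strands, is the core of the N box that restricts expression to synaptic nuclei. It occurred 76 bases before the start of Chrne and 23 bases before that of Gadd45a, against 12% of all promoters. A match describes letters in the window and does not show that a factor binds there.

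By the GENCODE vM21 annotation of the same build, Chrnd and Chrng are tandem neighbours on chromosome 1, with 4586 bp between the end of Chrnd (87190607 to 87200070) and the start of Chrng (87204657 to 87212694). Chrnb1 and Chrne both lie on chromosome 11. Chrne overlaps the gene 4930544D05Rik on the opposite strand over 1043 bp, Gadd45a overlaps E230016M11Rik over 859 bp, and Ncam1 overlaps Gm11149 over 54304 bp. These overlaps are of whole gene spans, introns included, and the exon bases shared were not measured. The counting command in the study's methods names no strand option, so reads in any exon bases shared with a partner cannot be told apart by strand. The longest coding transcript ran from 1223 bp for Gadd45a to 6050 bp for Ncam1.

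The muscle libraries held between 23050918 and 23425284 counts. Levels are CPM, the counts scaled to a common library size with TMM factors, and 3 counts correspond to 0.115 to 0.140 CPM, which covers counting error only. The labelled tissue was read from its markers, with 8 muscle fibre markers summing to between 70028 and 114493 CPM in every library. On the second principal component of the 500 most variable genes, CREX 2 and CREX 3 stood at 25.1 and 27.2, whereas the first CREX library stood at -12.3 and the CR libraries between -22.5 and -8.20. Myh7, the slow myosin heavy chain, was at 6.24 and 0.119 CPM in these CREX libraries, at 110 CPM in the first CREX library and at 14.5 to 796 CPM elsewhere. For most members the fitted values are also given without these libraries, which leaves only the first CREX library in its group. Values of other genes, subunit shares, ratios and correlations were not recalculated without them. In whole muscle, a change in the number of cells of a type and a change in RNA per cell cannot be told apart.

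Of the 9 genes, 8 had enough counts to be tested, and 5 of them were higher under CR when the average of the CR against control and CREX against EX effects was taken over all 14 libraries. These were Chrnb1, Musk, Myog, Chrna1 and Gadd45a, with fold changes from 1.82 to 2.74. Chrnd was the only tested member that was lower. A gene was called when edgeR's Benjamini-Hochberg adjusted p was under 0.05 and the fold change exceeded 1.5, and by this rule 14.1% of all 13610 genes tested were called in this CR main effect. In CR against control 4 of 8 members were called, all higher, beside 9.6% of 13173 genes. In CREX against EX 5 of 8 were called, all higher, beside 8.87% of 13112 genes. Without CREX 2 and CREX 3 the CREX group held 1 library, so for that setting only effect sizes are given. In EX against control no member was called, beside 0.0775% of 12907 genes.

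**Figure D1:**
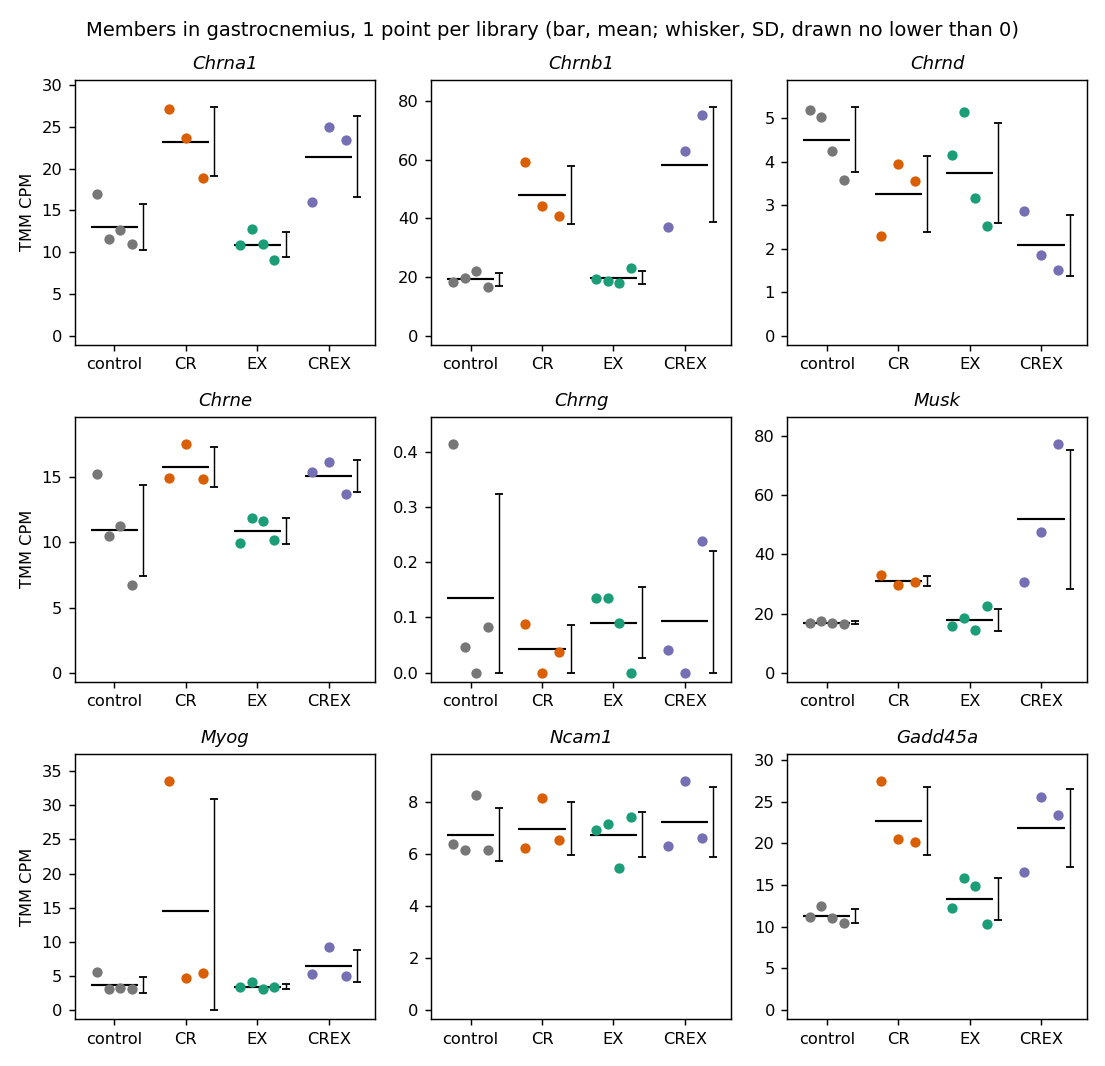
Levels of the 9 genes (TMM CPM, y axis) in the 14 gastrocnemius libraries by group (x axis), 1 point per library, with the group mean as a bar and the SD as a whisker drawn no lower than 0. For Chrna1, Chrnb1, Musk and Gadd45a every CR library lies above every control library and every CREX library above every EX library, whereas Ncam1 overlaps in all groups.

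Chrnb1, the beta subunit, had the largest rise among the muscle receptor subunits. It stood at 18.4, 19.8, 21.9 and 16.4 CPM in the control and at 59.0, 44.2 and 40.6 CPM in the CR libraries. In the EX libraries it stood at 19.4, 18.5, 18.03 and 23.1 CPM, and in the CREX libraries at 36.9, 62.8 and 75.3 CPM. All 6 libraries of the restricted groups were above all 8 others, with the lowest value in the first CREX library. The fold change was 2.52 in CR against control (log2 fold change 1.33 ± 0.15 SE, edgeR adjusted p = 5.8e-04) and 2.95 in CREX against EX (1.56 ± 0.22, adjusted p = 0.0071). Without CREX 2 and CREX 3 the log2 fold change of Chrnb1 in CREX against EX was 0.90. Chrnb1 was called in every other alternative of both comparisons.

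Chrna1, the alpha subunit that carries the acetylcholine binding site, followed at a smaller size. It was at 17.0, 11.5, 12.7 and 10.9 CPM in the control and at 27.2, 23.7 and 18.9 CPM in the CR libraries. It was at 10.9, 12.8, 10.9 and 9.04 CPM in the EX and at 16.0, 24.96 and 23.4 CPM in the CREX libraries. The restricted groups did not overlap with their own comparison group, although the first CREX library lay below the first control library. The fold change was 1.79 in CR against control (log2 fold change 0.84 ± 0.17 SE, edgeR adjusted p = 0.0107) and 1.97 in CREX against EX (0.98 ± 0.17, adjusted p = 0.0102). Without CREX 2 and CREX 3 the latter fell to 0.55 on the log2 scale, and the CR main effect was 0.68.

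Chrnd, the delta subunit, moved the other way. Its levels were 5.20, 5.03, 4.25 and 3.58 CPM in the control, 2.28, 3.95 and 3.55 CPM in the CR, 4.16, 5.15, 3.16 and 2.52 CPM in the EX and 2.87, 1.85 and 1.51 CPM in the CREX libraries, from 38 to 114 counts each. The groups overlapped in both comparisons, and neither was called (log2 fold change -0.46 ± 0.21 SE, edgeR adjusted p = 0.17, and -0.86 ± 0.30, adjusted p = 0.082). Over all 14 libraries the CR main effect was -0.66 ± 0.19 on the log2 scale, a 1.58-fold lower level (edgeR adjusted p = 0.0140). This call was lost when the first CR, the second EX or the CREX 3 library was left out (log2 fold change -0.57 to -0.56, under the fold minimum). The main effect was -0.44 without CREX 2 and CREX 3. In CREX against EX, Chrnd was called without the first CREX library (-1.16, edgeR adjusted p = 0.0133) and in 1 edgeR fit over all groups (-0.85, adjusted p = 0.040). DESeq2 over all groups called it as well.

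Chrne, the adult epsilon subunit, was at 15.3, 10.5, 11.3 and 6.74 CPM in the control and at 14.9, 17.5 and 14.9 CPM in the CR libraries. It was at 9.95, 11.9, 11.7 and 10.2 CPM in the EX and at 15.4, 16.2 and 13.7 CPM in the CREX libraries. The CREX libraries lay above all EX libraries, and the CR libraries overlapped with the first control library. The adjusted p was under the threshold in CREX against EX (log2 fold change 0.47 ± 0.11 SE, edgeR adjusted p = 0.0251) and in the CR main effect (0.50 ± 0.13, edgeR adjusted p = 0.0096), but with fold changes of 1.38 and 1.41 Chrne was not called. Without the first control library Chrne was called in CR against control (0.74 on the log2 scale, edgeR adjusted p = 0.031), and the CR main effect reached 0.61 on the log2 scale and was called (edgeR adjusted p = 0.0011).

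Chrng, the fetal gamma subunit, was at or near 0 in muscle of every group and was not tested. It had 9, 1, 0 and 2 counts in the control, 2, 0 and 1 in the CR, 3, 3, 2 and 0 in the EX and 1, 0 and 6 in the CREX libraries. No fold is given, since most libraries were at or under 3 counts. The highest level, 0.414 CPM, was in a control library, and no CR, EX or CREX library exceeded 6 counts, so no rise was seen.

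Per kilobase of the longest coding transcript, the receptor subunits differed in level and in how their shares moved. In control muscle the mean was 8.87 ± 1.09 CPM per kb (SD, n = 4) for Chrnb1, 6.77 ± 2.16 for Chrne, 2.97 ± 0.62 for Chrna1, 1.53 ± 0.25 for Chrnd and 0.049 ± 0.068 for Chrng. Chrnb1 and Chrne overlapped in this order, with Chrne between 4.17 and 9.45 CPM per kb and Chrnb1 between 7.60 and 10.2, whereas Chrna1, Chrnd and Chrng did not overlap with their neighbours. Of the summed level of the 5 subunits, Chrnb1 made up 35.9 to 49.0% in control, 41.6 to 53.8% in EX, 53.8 to 62.8% in CR and 54.7 to 70.8% in CREX libraries. Chrnd made up 6.71 to 8.51% in control, 4.28 to 8.47% in EX, 1.77 to 3.58% in CR and 1.04 to 3.11% in CREX libraries. The ratio of Chrnb1 to Chrnd, both per kb, was 4.83, 5.39, 7.06 and 6.27 in control, 6.37, 4.91, 7.80 and 12.6 in EX, 35.4, 15.3 and 15.7 in CR and 17.6, 46.5 and 68.4 in CREX libraries. All libraries of the restricted groups were above all others, and the highest ratios were in the CREX libraries with the least Myh7. The share of Chrna1 stayed between 10.3 and 16.3% in all 14 libraries. These shares describe transcript levels and were not tested, and the lengths come from GENCODE vM21, which may not be the annotation of the counts.

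**Figure D2:**
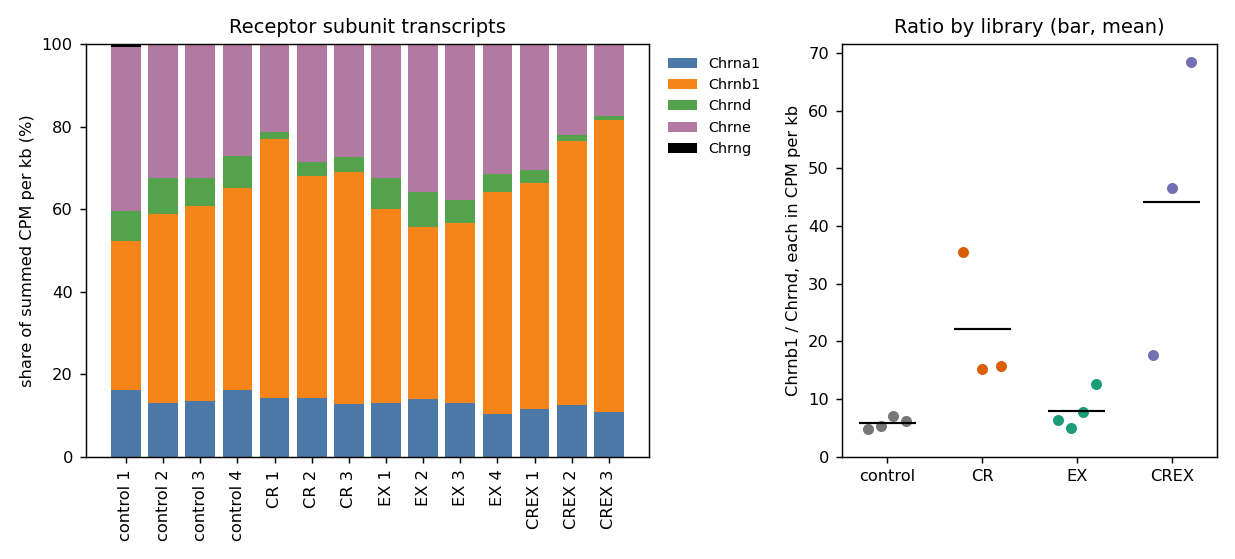
Left, share of each receptor subunit transcript in the summed level of the 5 (% of CPM per kb, y axis) in each gastrocnemius library (x axis). Right, the ratio of Chrnb1 to Chrnd (each in CPM per kb) by library and group, with the mean as a bar. The ratio lies between 4.83 and 12.6 in the 8 control and EX libraries and between 15.3 and 68.4 in the 6 CR and CREX libraries.

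Musk, the kinase that organizes the postsynaptic membrane, was tightly grouped in control muscle, at 16.7, 17.6, 16.7 and 16.5 CPM, and rose to 32.9, 29.5 and 30.5 CPM in CR. The EX libraries stood at 15.6, 18.5, 14.4 and 22.7 CPM, and the CREX libraries at 30.6, 47.6 and 77.3 CPM. Neither comparison overlapped, and the CREX libraries spread over a wider range than those of any other group. The fold change was 1.84 in CR against control (log2 fold change 0.88 ± 0.09 SE, edgeR adjusted p = 4.1e-04) and 2.92 in CREX against EX (1.54 ± 0.31, adjusted p = 0.0212). The CREX against EX call was lost without each of EX 1, EX 2, EX 3 and CREX 2, without the filter on low counts and with the replicate block, with edgeR adjusted p between 0.054 and 0.061. The log2 fold change was 0.78 without CREX 2 and CREX 3. The difference between the CR effects with and without EX was 0.69 ± 0.34 on the log2 scale (edgeR unadjusted p = 0.061, adjusted p = 0.94), with a 95% interval from -0.04 to 1.41.

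Myog, whose product drives receptor genes after denervation, depended on single libraries. It was at 5.47, 2.98, 3.21 and 3.08 CPM in the control and at 33.5, 4.62 and 5.46 CPM in the CR libraries. It was at 3.30, 4.02, 3.03 and 3.31 CPM in the EX and at 5.24, 9.16 and 4.96 CPM in the CREX libraries. The first CR library, with 764 counts against 117 and 143 in the others of the group, stood alone. The log2 fold change was 1.99 ± 0.73 SE in CR against control (edgeR adjusted p = 0.12, not called) and 0.45 without the first CR library (edgeR adjusted p = 0.25), and in 1 edgeR fit over all groups it was called (1.98, adjusted p = 0.0485). In CREX against EX, where the libraries did not overlap, Myog was called at 0.91 ± 0.23 (fold 1.88, edgeR adjusted p = 0.0303). This call was lost in several alternatives, among them 5 of the 7 fits with 1 library left out and the replicate block. The lowest value was 0.58 without the second CREX library (edgeR adjusted p = 0.098). The CR main effect of 1.45 ± 0.43 (edgeR adjusted p = 0.0216) fell to 0.68 without the first CR library and was still called (edgeR adjusted p = 0.012). It was not called without the second CREX library (log2 fold change 1.28, edgeR adjusted p = 0.056) or with no filter on low counts (1.44, adjusted p = 0.051). Without CREX 2 and CREX 3 together the CR main effect of Myog was 1.28.

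Ncam1, an adhesion molecule that spreads over the surface of denervated fibres, stayed level. Its values ran from 6.14 to 8.28 CPM in control, 6.23 to 8.14 in CR, 5.47 to 7.41 in EX and 6.28 to 8.79 in CREX libraries. All groups overlapped. The log2 fold change was 0.05 in CR against control, with a 95% interval from -0.28 to 0.39, and 0.10 in CREX against EX, with an interval from -0.26 to 0.46. The CR main effect was 0.08, from -0.17 to 0.32 (edgeR adjusted p = 0.64).

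Gadd45a rose to a similar level in both restricted groups. It was at 11.2, 12.5, 11.1 and 10.4 CPM in the control and at 27.5, 20.5 and 20.2 CPM in the CR libraries. It was at 12.3, 15.8, 14.9 and 10.3 CPM in the EX and at 16.5, 25.6 and 23.5 CPM in the CREX libraries. The groups of each comparison did not overlap, with the first CREX library closest to its EX group. The fold change was 2.02 in CR against control (log2 fold change 1.015 ± 0.13 SE, edgeR adjusted p = 0.0013) and 1.64 in CREX against EX (0.71 ± 0.18, adjusted p = 0.0349). The latter call was lost without each of EX 1 to EX 4, CREX 2 and CREX 3, with edgeR adjusted p between 0.056 and 0.13. The log2 fold change was 0.31 without CREX 2 and CREX 3 together.

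**Figure D3:**
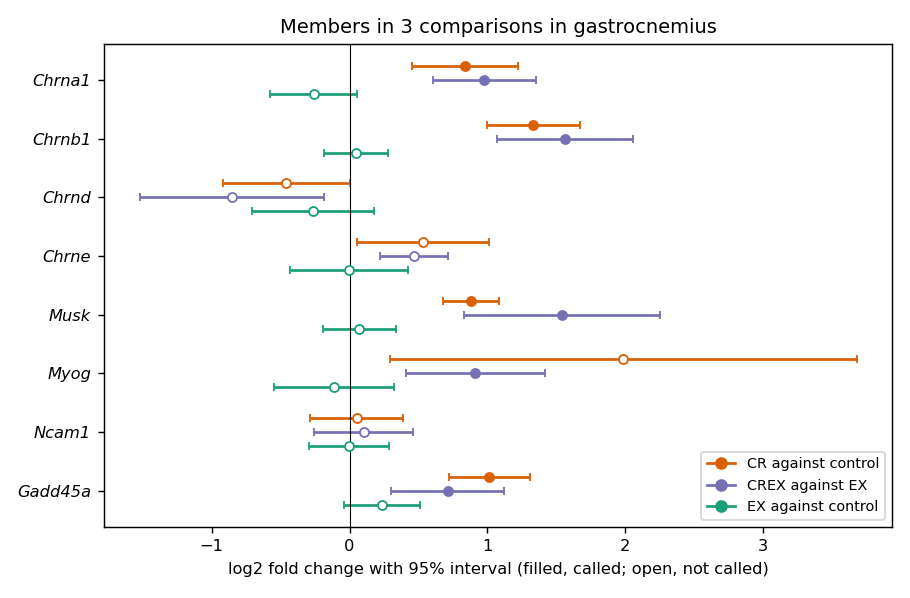
Log2 fold change (x axis) of the 8 tested genes (y axis) in CR against control, CREX against EX and EX against control, with 95% intervals from edgeR and filled points where the gene was called. In CR against control 4 genes are called, in CREX against EX 5, and in EX against control none.

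No member was called after treadmill training alone. The log2 fold changes of the 8 tested genes in EX against control ran from -0.27 for Chrnd to 0.24 for Gadd45a, with the lowest edgeR adjusted p at 0.81 and 0 of them at an unadjusted p under 0.05 or called by DESeq2. The 95% interval was -0.58 to 0.06 for Chrna1, -0.19 to 0.28 for Chrnb1, -0.19 to 0.34 for Musk, -0.43 to 0.42 for Chrne, -0.55 to 0.32 for Myog and -0.71 to 0.18 for Chrnd. For Chrnd this includes a fall beyond the 1.5-fold minimum, and all 8 intervals included 0. In CREX against CR none of the 8 was called, as was the case for 0% of 13068 genes, where 477 genes had an edgeR unadjusted p under 0.05 and DESeq2 called 35. Musk had the lowest p among the members there (log2 fold change 0.73 ± 0.29 SE, edgeR unadjusted p = 0.037, adjusted p = 0.999). The interaction of CR and EX was likewise called for 0% of 13610 genes, with 669 at an edgeR unadjusted p under 0.05 and 1 called by DESeq2. No member was called for it, and the 95% intervals reached from -0.41 to 0.73 on the log2 scale for Chrna1 and from -0.38 to 0.88 for Chrnb1, so the CR effects with and without EX were not shown to be alike.

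Among the other receptor genes, the neuronal type subunits were mostly under the detection limit, with 3 of 11 listed tested in the CR main effect. Chrna2 was at 3.86 to 5.11 CPM in control, 0.746 to 0.909 in CR, 1.45 to 2.85 in EX and 0.0397 to 0.541 CPM in CREX libraries (log2 fold change -2.78 ± 0.27 SE, edgeR adjusted p = 6.1e-06). Chrna10 was lower as well (-1.32 ± 0.24, edgeR adjusted p = 9.5e-04). Chrna9 was at 0 to 0.271 CPM in the control and EX libraries, at 0.267 to 3.60 CPM in CR and at 0.125 to 7.53 CPM in CREX libraries, and was called higher (edgeR adjusted p = 0.0031). Its fitted fold rests on groups close to 0 and is not given.

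Most genes of the agrin, LRP4 and MuSK pathway were not called beside Musk, although 9 of the 19 had an edgeR unadjusted p under 0.05. Of 19 synapse organizers and scaffold genes tested in the CR main effect, 2 were higher, 1 was lower and 16 were not called, with a median log2 fold change of -0.03 against 0.00420 over all genes tested. The log2 fold change was -0.22 ± 0.13 SE for Agrn, -0.42 ± 0.16 for Lrp4, 0.23 ± 0.11 for Dok7 and 0.14 ± 0.11 for Rapsn, with edgeR adjusted p between 0.054 and 0.34. These 4 genes, named after their values were seen as the core of the pathway, encode agrin, its receptor, the MuSK adaptor and rapsyn. Sntb1, which encodes a syntrophin of the dystrophin complex, was higher (1.84 ± 0.18, edgeR adjusted p = 6.3e-06). Pdzrn3, which encodes a ubiquitin ligase that binds MuSK, was lower (-0.75 ± 0.09, edgeR adjusted p = 3.2e-05). Dtna (0.53 ± 0.08, edgeR adjusted p = 1.5e-04) and Macf1 (-0.52 ± 0.10, adjusted p = 9.0e-04), named after their values were seen, missed only the fold minimum. Of 8 tested genes of the neuregulin and ETS pathway, which drives transcription in synaptic nuclei, edgeR called none in the CR main effect, with 1 at an unadjusted p under 0.05.

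In the synaptic cleft, 2 of 13 genes were higher, 1 was lower and 10 were not called in the CR main effect. Prima1, which anchors acetylcholinesterase in membranes, was at 4.05 to 6.53 CPM in control, 5.06 to 8.09 in EX, 27.7 to 41.4 in CR and 27.0 to 54.7 CPM in CREX libraries (log2 fold change 2.60 ± 0.17 SE, edgeR adjusted p = 2.5e-07). Ache, the gene of the enzyme itself, rose by 0.71 ± 0.11 on the log2 scale (edgeR adjusted p = 3.4e-04). Hspg2, which encodes the basement membrane proteoglycan perlecan, was lower (-0.70 ± 0.15, edgeR adjusted p = 0.0025). The list median was -0.16.

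**Figure D4:**
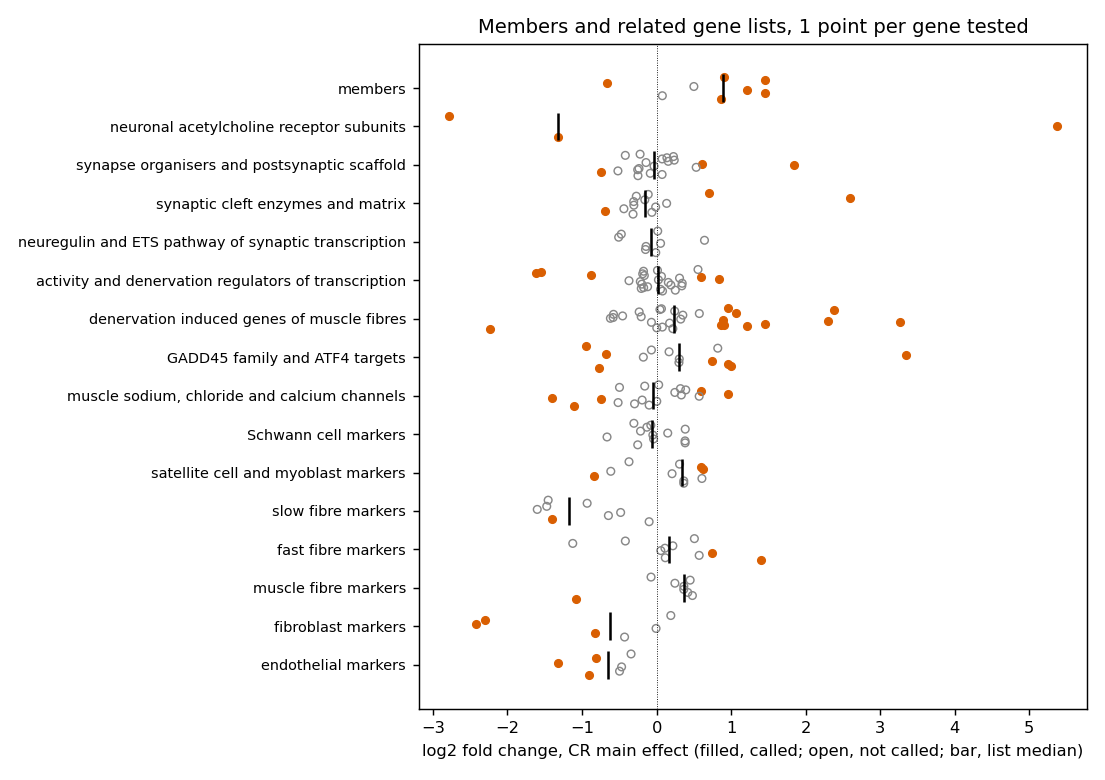
Log2 fold change in the CR main effect (x axis) of every tested gene of the members, 8 related pathway lists and 7 cell marker lists (y axis, shared genes drawn in each list), filled where called, with the list median as a bar. The member median lies at 0.89, and the median of the neuregulin and ETS list lies at -0.08 with no gene called.

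Of 26 genes that couple activity or denervation to transcription, 2 were higher and 3 lower in the CR main effect, with a median log2 fold change of 0.02. The lower ones were Hdac9 (-1.55 ± 0.22 SE, edgeR adjusted p = 1.3e-04), Dach2 (-1.61 ± 0.36, adjusted p = 0.0045) and Six4 (-0.88 ± 0.13, adjusted p = 2.3e-04). Hdac9 and Dach2 encode repressors of Myog that are known to fall when muscle is denervated. Hdac9 stood at 4.297 to 5.41 CPM in control, 3.77 to 6.20 in EX, 0.921 to 2.65 in CR and 0.903 to 2.12 CPM in CREX libraries. The higher ones were the myogenic factor genes Myf6 (0.84 ± 0.15, edgeR adjusted p = 0.0010) and Myod1 (0.60 ± 0.14, adjusted p = 0.0039). At an edgeR unadjusted p under 0.05 were 13 of the 26 genes. Hdac4 (0.56 ± 0.14, edgeR adjusted p = 0.0072) and Mef2c (-0.37 ± 0.11, adjusted p = 0.0146), named after their values were seen, missed only the fold minimum.

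Of the genes known to be induced by denervation, 23 that are not members were tested in the CR main effect, and 6 were higher, 1 lower and 16 not called (median log2 fold change 0.17). Sln, the sarcolipin gene, rose by 2.38 ± 0.37 (edgeR adjusted p = 4.5e-04), and Trim63, the gene of the ubiquitin ligase MuRF1, by 1.06 ± 0.28 (adjusted p = 0.0121). Fbxo32, the atrogin-1 gene, was called in CREX against EX (0.95 on the log2 scale) and not in the CR main effect (0.57 ± 0.26, edgeR adjusted p = 0.10). Mt2 rose by 3.26 ± 0.74 on the log2 scale (edgeR adjusted p = 0.0072), and stood at 283 CPM in CREX 3 and at 1.86 to 15.6 CPM in all others. Fbxo30 was lower in CR against control (-0.69 on the log2 scale) and was under the fold minimum in the CR main effect. The gene that was lower was Igfn1 (-2.23). Myh3 and Myh8, the embryonic and perinatal myosin genes named here after their values were seen, were not called, at 0.24 ± 0.30 for Myh3 (edgeR adjusted p = 0.57) and -0.23 ± 0.30 for Myh8 (adjusted p = 0.58).

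The relatives of Gadd45a differed in sign. Gadd45b fell by 0.95 on the log2 scale (edgeR adjusted p = 0.0190), and Gadd45g, named after its value was seen, was not called (0.82 ± 0.39, edgeR adjusted p = 0.12). Of 13 tested genes of the GADD45 family and of ATF4 targets, 4 were higher, 3 lower and 6 not called in the CR main effect, with a median of 0.30. Ddit4, which inhibits mTORC1, rose most (3.34 ± 0.54, edgeR adjusted p = 9.7e-04), from 2.44 to 17.3 CPM in control and 2.14 to 12.0 in EX to 36.9 to 150.04 in CR and 44.4 to 94.4 CPM in CREX libraries. Eif4ebp1 rose by 0.99, Cdkn1a by 0.96 and Chac1 by 0.74 on the log2 scale, while Ddit3 (-0.68) and Nupr1 (-0.78) were lower, with edgeR adjusted p between 5.6e-04 and 0.0210. Of 18 tested genes of ion channels and pumps of muscle fibres, 2 were higher and 3 lower (median -0.05). An edgeR unadjusted p under 0.05 was found for 13 of the 18. The calcium channel subunit genes Cacnb1 (0.60) and Cacng1 (0.96) were above. The potassium channel gene Kcnj2 (-0.75) and the pump genes Atp2a2 (-1.41) and Atp1b1 (-1.11) were below. Atp2a2 is also on the slow fibre list. Atp2a1 (0.57, edgeR adjusted p = 2.4e-04) and Kcnma1 (-0.52, adjusted p = 3.6e-04), named after their values were seen, missed only the fold minimum. In CREX against EX, Atp2a2 was at -2.47 and Atp1b1 at -1.45, and neither was called (edgeR adjusted p = 0.11 and 0.21).

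Markers of other cells were read beside these changes. Schwann cell markers had 0 of 12 tested genes called by edgeR in the CR main effect and 0 at an unadjusted p under 0.05, and their summed level overlapped in all groups, from 67.0 to 257 CPM in control, 80.2 to 316 in CR, 60.6 to 166 in EX and 62.7 to 136 CPM in CREX libraries. Axon transcripts summed to at most 0.821 CPM in any library and none was tested. Among 10 satellite cell and myoblast markers, Cdh15 and Myod1 were higher and Vcam1 lower, and Pax7, the defining satellite cell gene and named for that, was between 1.14 and 3.17 CPM in all libraries and was not called. Endothelial markers were lower for 3 of 6 genes (sum 219 to 289 CPM in control, 140 to 181 in CR, 221 to 274 in EX and 96.8 to 199 in CREX), namely Emcn, Cdh5 and Kdr. Fibroblast markers were lower for 3 of 6 genes, Col3a1, Col1a1 and Lum, and immune markers for 1 of 4, Ptprc. Of 5 blood and 5 brown adipocyte markers tested edgeR called 0, with 0 and 1 at an unadjusted p under 0.05. Fast fibre markers were higher for 2 of 10 genes, Actn3 (1.404 ± 0.14, edgeR adjusted p = 8.5e-06) and Mylpf (0.75 ± 0.16, adjusted p = 0.0028), and their sum was 83796 to 95788 CPM in control, 92049 to 104489 in EX, 114870 to 137078 in CR and 115034 to 148197 CPM in CREX libraries. Slow fibre markers summed to 1121 to 2149 CPM in control, 1737 to 2089 in CR, 406 to 2044 in EX and 47.4 to 653 CPM in CREX libraries. The median of the slow fibre list had opposite signs in the comparisons that the CR main effect averages. In CR against control 2 of 8 genes, Myl2 (0.62) and Casq2 (0.60), were higher and the median log2 fold change was 0.16. In CREX against EX edgeR called 0, with 1 at an unadjusted p under 0.05 and a median of -2.35. In the CR main effect 1 of 8, Atp2a2, was lower. The part of these cell markers in the changes of the junction genes was not tested.

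By Spearman correlation of CPM over the 14 muscle libraries, among 11668 genes with a mean of at least 1 CPM, the genes most like Chrna1 were Clk2-scamp3 (rho = 0.94), Zfp598 (0.93), Ipo13 (0.92) and Slc2a3 (0.92). Those most like Myog were Crym (0.90), Pex10 (0.89), Abt1 (0.89) and Ddx18 (0.88). The 14 points share the 4 groups and their CR difference, so the values are a description. Within the 6 restricted libraries, rho between Chrna1 and Gadd45a was 0.94 and between Chrnb1 and Chrnd -0.77, and within the 8 others 0.33 and -0.10. No rule was set for the member pairs given. Other pairs were as strong, such as Chrnd and Musk at -1 in the restricted libraries and Chrna1 and Chrnd at 0.90 in the others. The restricted libraries mix the CR and CREX groups, so these are not relations within a group.

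In BAT, Chrnb1 was at 0.825 to 3.14 CPM in 14 of the 15 libraries and at 7.45 CPM in EX 3. Chrna1 was at 0 to 1.98 CPM and Myog at 0 to 0.661 CPM in the same 14 libraries, and EX 3 held 7.57 and 9.47 CPM.

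**Figure D5:**
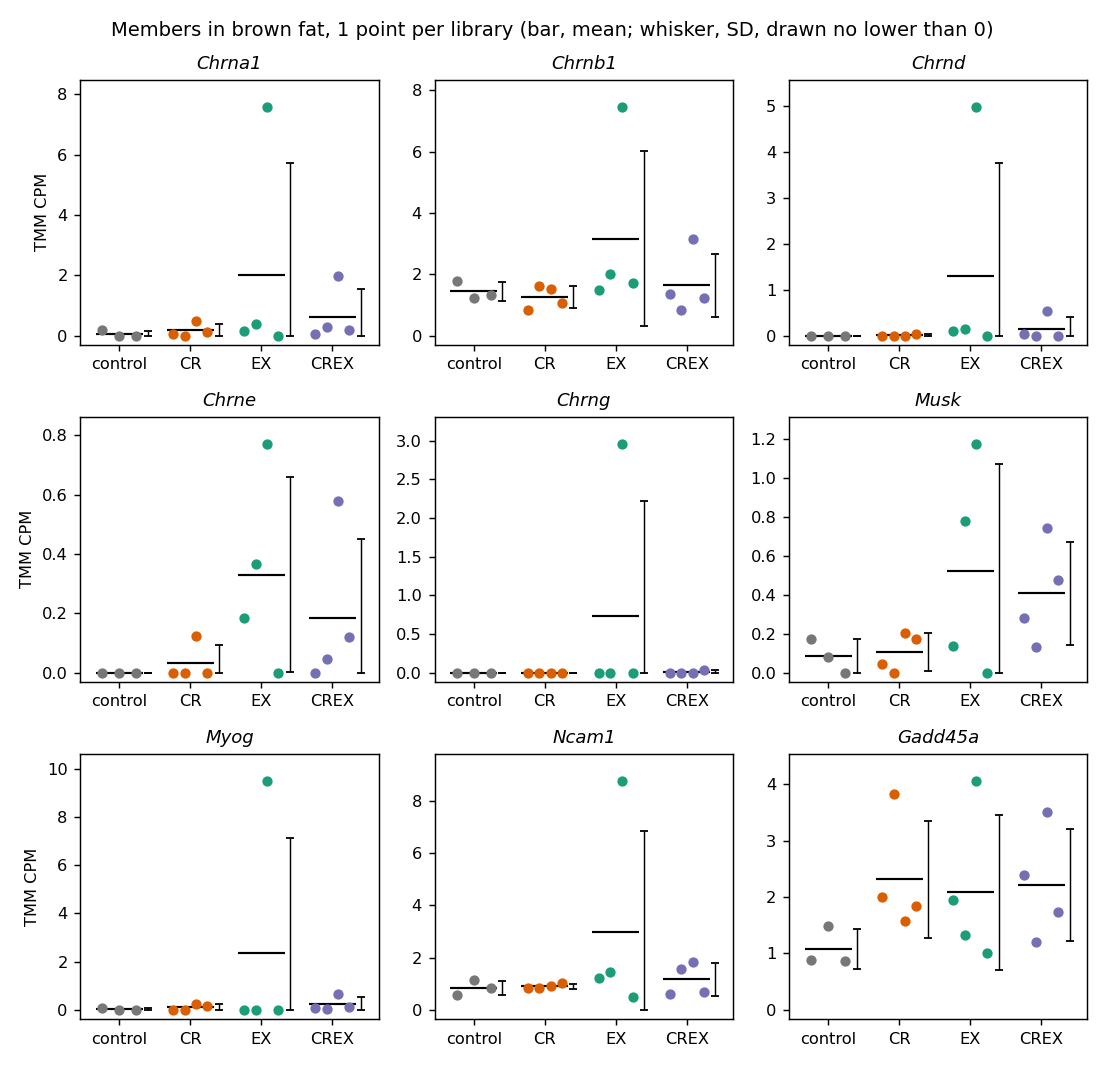
Levels of the 9 genes (TMM CPM, y axis) in the 15 BAT libraries by group (x axis), 1 point per library, with the group mean as a bar and the SD as a whisker drawn no lower than 0. The EX 3 library holds the highest value of all 9 genes, for example 9.47 CPM of Myog against at most 0.661 CPM in every other library.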

How the data were processed

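Gastrocnemius and BAT samples had been sequenced paired-end on a BGIseq500 platform. The authors trimmed the reads, mapped them to mm10 with STAR 2.7.10a and quantified them with RSEM (1.2.28 in the submitters' processing notes). The counting annotation is not given in the sources used here. The deposited values are expected counts per gene symbol, not normalized, for 24770 symbols. Of these, 27 had turned into dates and 2 were duplicated, and none of them is named. Expected counts were rounded.

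Each of the 2-group comparisons was fitted with edgeR 4.0.16 in R 4.3.3 on its own libraries (robust quasi-likelihood test, TMM, filterByExpr), and the CR main effect and the interaction in 1 fit over all 14 muscle libraries. Adjusted p-values are Benjamini-Hochberg values over all genes tested. A gene was called at an adjusted p under 0.05 with a fold change above 1.5, and for the interaction without a fold minimum. The SE is the log2 fold change divided by the square root of F, and 95% intervals use the t distribution of the fit. DESeq2 1.42.0, RLE size factors, other filters, 1 fit over all groups, a replicate block and each library left out were alternatives. Leaving out CREX 2 and CREX 3 together was added after the data had been seen, and it left 1 CREX library. The code was tested on simulated data.

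The members and lists were chosen with earlier results of these data known, and the denervation list shares 6 genes with the members. All 9 members are named. From each other list, up to 6 called genes with the smallest p in the CR main effect were to be named, with up to 2 more of the highest level. Not every such gene is named, 1 called gene of the synapse list is not reported here, and exceptions are marked. Nothing in the sources used here ties same-numbered libraries to each other, and p-values measure the spread between these samples. Promoter sequences are from RefSeq (GRCm38.p6) and gene models from GENCODE vM21. Figures were drawn with matplotlib 3.10.9 under Python 3.11.15.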

Additional observations from a re-analysis of the deposited data

Results flagged for a closer look

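In the control group of muscle, the highest library lay far from the other 3 for Myog (5.47 CPM in control 1, others 2.98 to 3.21) and for Ncam1 (8.28 CPM in control 3, others 6.14 to 6.39). These are 2 of 18 groups of 4 libraries examined, and chance flags about 1 in 20.

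Outside the muscle comparisons, 8 of the 9 genes in the BAT library EX 3 exceeded 3 times the highest BAT control library. Chrna1 stood at 7.57 CPM (highest control 0.175), Chrnb1 at 7.45 CPM (1.79), Chrnd at 4.98 CPM (0), Chrne at 0.769 CPM (0), Chrng at 2.96 CPM (0), Musk at 1.17 CPM (0.175), Myog at 9.47 CPM (0.0874) and Ncam1 at 8.75 CPM (1.13). Other BAT libraries also passed this multiple for some of these genes. For example, CREX 3 held 1.98 CPM of Chrna1, 0.537 of Chrnd, 0.578 of Chrne, 0.743 of Musk and 0.661 of Myog. EX 2 held 0.777 CPM of Musk. Chrng had 73 counts in EX 3 and at most 1 count in any other BAT library. In the same library Myh3 and Myh8, the embryonic and perinatal myosin genes, stood at 102.7 and 71.3 CPM, against at most 0.702 and 0.124 CPM in the other 14. Genes of adult muscle did not single this library out: Acta1 stood at 1348 CPM in EX 3 and at up to 1832 CPM elsewhere, Ckm at 391 and up to 806 CPM, and Myh4 at 491 and up to 1265 CPM. The part of muscle RNA in the values of the 8 genes was not tested.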

How the results depend on the processing

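Leaving out CREX 2 and CREX 3 together left 1 CREX library, so calls are not given for that setting. Under every other alternative Chrna1, Chrnb1, Musk and Gadd45a were called in CR against control and in the CR main effect. Chrna1 and Chrnb1 were also called under these in CREX against EX. Member calls in CREX against EX fell from 5 to 3 with the replicate block and were 2 to 6 with 1 library left out (2 without EX 1, EX 2, EX 3 or CREX 2, and 6 without CREX 1). All genes called in that comparison numbered 646 with the replicate block, 290 without both CREX libraries, 1781 without a fold minimum and 343 (without CREX 2) to 2570 (without CREX 1) with 1 library left out, against 1163, and each of the 7 libraries left out moved this count by over 1.5 times. In EX against control the 10 called genes became 49 with DESeq2, 31 without a filter, 1 with the replicate block, 0 in 1 fit over all groups (546 at an edgeR unadjusted p under 0.05) and 1 (without control 3) to 19 (without control 4) with 1 library left out, with control 2, EX 1 and EX 3 moving it to 6, 5 and 3. In CREX against CR they became 35 with DESeq2, 40 with DESeq2 on all groups and 0 to 99 with 1 library left out, the 99 without CREX 1. The CR main effect had 4556 without a fold minimum, against 1922. The interaction had 1 with DESeq2 and 0 to 182 with 1 library left out, the 182 without CREX 1.

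Signs turned for members that were not called. With the replicate block Chrne in EX against control was 0.036 on the log2 scale. Without CREX 2 and CREX 3, Ncam1 was -0.10 in CREX against EX, -0.17 in CREX against CR, -0.045 in the CR main effect and -0.17 in the interaction. In the same setting, Chrnb1 was -0.40 and Musk -0.038 in CREX against CR, and the interaction was -0.30 for Chrna1, -0.45 for Chrnb1, 0.062 for Chrnd and -0.11 for Musk. With 1 library left out, log2 fold changes whose sign turned ranged as follows. In CREX against CR they were Chrna1 -0.25 to 0.047, Chrne -0.13 to 0.013, Gadd45a -0.20 to 0.0996, Myog -1.59 to 0.35 and Ncam1 -0.12 to 0.17. In the interaction of CR and EX they were Chrna1 -0.013 to 0.35, Chrne -0.27 to 0.13, Myog -1.48 to 0.48 and Ncam1 -0.096 to 0.19. In EX against control they were Chrnb1 -0.038 to 0.12, Chrne -0.18 to 0.20, Musk -0.065 to 0.16, Myog -0.21 to 0.14 and Ncam1 -0.053 to 0.11. In CR against control they were Ncam1 -0.074 to 0.16. In the CR main effect they were Ncam1 -0.0091 to 0.13. In CREX against EX they were Ncam1 -0.056 to 0.19.

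The cause of these changes was not tested. Correlations over genes between the deviations of same-numbered libraries from their group means ran from -0.42 to 0.39. The numbers were therefore not taken as pairs. The replicate block took the calls of Musk and Myog in CREX against EX and changed no other member call. DESeq2 gave no adjusted p for Myog in 7 fits, which were left out. Groups of 3 and 4 libraries and the low counts of Chrnd and Chrng limit what could be seen.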
